A study of Mus musculus with 6 samples.

Results

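The genes described are 10 genes of WNT signalling, chosen by name: the ligand genes Wnt3, Wnt5a, Wnt5b and Wnt6, the nuclear effector genes Lef1 and Tcf7, and the response genes Axin2, Nkd1, Sp5 and Znrf3. Of these, 9 are rows of the deposited table of 12065 genes. Sp5 is not in that table and is reported as not measured. The choice was made with earlier results of these data known. The dorsal ligand gene Wnt7a was left out of the choice and is mentioned only where all ligands are counted.

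WNT proteins are secreted, lipid-modified ligands that bind Frizzled receptors. In the canonical branch they stop the destruction of beta-catenin, which enters the nucleus and works with LEF and TCF proteins at target genes, among them Axin2, Nkd1 and Znrf3, whose products feed back to limit the signal. In the mouse limb bud, Wnt3 in the ectoderm is needed to form and keep the apical ectodermal ridge, the epithelial rim that drives outgrowth. Wnt5a is made by the distal mesenchyme and acts largely through a branch that orients cells without beta-catenin.

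RNA came from the distal tips of mouse limb buds. The overexpressing embryos were HoxB6CreER;R26Meis2a-IRES-EYFP/Meis2a-IRES-EYFP: a Cre that 4-hydroxy-tamoxifen activates, named for HoxB6, switches on Meis2 isoform a and a yellow fluorescent reporter from both Rosa26 alleles. The controls were R26Meis2a-IRES-EYFP/Meis2a-IRES-EYFP embryos, which the labels describe from the same kind of cross and which carry the transgene without the Cre, so the Cre itself and the raised Meis2 cannot be told apart. Pregnant females of both groups were injected at E8.3 (embryonic day 8.3) with 4-hydroxy-tamoxifen, at 0.8 mg. There were 3 libraries per genotype, each a pool of tips from 2 embryos, 1 at 37, 1 at 38 and 1 at 39 somites. The replicate number is therefore the stage, and the labels do not say which limbs were used or whether pools of the same stage shared a litter.

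Values are in CPM, the read count of a gene scaled for depth, which the authors set on an effective library size. The libraries held 7622698 to 15395447 reads, and 3 reads, taken as the limit of detection, were worth 0.194 to 0.388 CPM. Meis2 itself stood at 20.6, 15.3 and 13.8 CPM in the controls and at 41.3, 33.4 and 28.2 CPM in the overexpressing pools of 37, 38 and 39 somites (log2 difference 1.01, SE 0.16, adjusted p = 0.0185). That call was lost without control replicate 2 or 3 or overexpressing replicate 2 (adjusted p = 0.0651 to 0.0693 for these 3 fits). It was also lost in an alternative fit, robust eBayes without a trend (adjusted p = 0.0676). The tissue label was checked on 11 limb mesenchyme markers, all detected in every library, with Prrx1, a homeobox gene of limb mesenchyme, at 421 ± 55.1 CPM (SD, n = 3) in controls. Of 8 muscle markers only Met and Chrna1 are in the table, and of 10 macrophage markers only Csf1r, Cx3cr1 and Cd68.

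The first question was whether raised Meis2 changed the level of the WNT ligand genes. Of the 4 ligands, Wnt6 fell, Wnt3 and Wnt5a had lower values in every overexpressing pool without passing the test, and Wnt5b overlapped between genotypes. Wnt6 was thus the 1 call among the 9 measured genes, where 1.47% of all genes were called, 0.68% lower and 0.787% higher (limma on log2(CPM + 1), adjusted p under 0.05 over all genes). For 3 of the 9 genes the overexpressing pools all lay below the controls, which held for 10.4% of all genes. For 0 of the 9 they all lay above, which also held for 10.4% of all genes, so that 20.7% were apart in either direction.

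Wnt6, an ectodermal ligand of the limb, had 32.5, 28.2 and 29.7 CPM in the control pools at 37, 38 and 39 somites. In the overexpressing pools it had 19.3, 22.7 and 19.8 CPM. The highest overexpressing pool stayed under the lowest control pool, and the gap was widest at 37 somites, where the overexpressing pool had 59.3% of the control level. The mean fell to 68.3% of control, from 30.1 ± 2.18 to 20.6 ± 1.83 CPM (SD, n = 3 each; log2 difference -0.53, SE 0.09, adjusted p = 0.0262). The call held without overexpressing replicate 2 (adjusted p = 0.0372). It was lost without control replicate 1, 2 or 3 or overexpressing replicate 1 or 3 (adjusted p = 0.0792, 0.0529, 0.0956, 0.0629 and 0.0668), with differences of -0.60 to -0.48 over all 6 fits that left out a library. Robust eBayes without a trend also gave no call (adjusted p = 0.0621).

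Wnt3, the ectodermal ligand of ridge formation, was the rarest of the 9 genes. It had 10.99, 9.51 and 11.4 CPM in the controls, from 116, 109 and 95 reads. The overexpressing pools had 8.14, 7.51 and 7.57 CPM, from 87, 58 and 117 reads. The groups did not overlap, and the overexpressing mean was 72.8% of control, but the difference did not pass over all genes (log2 difference -0.41, SE 0.12, 95% interval -0.67 to -0.15, adjusted p = 0.131). It passed in 0 of the 17 alternative fits, with adjusted p between 0.0871 and 0.335.

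Wnt5a, the ligand of the distal mesenchyme, had by far the highest CPM of the 4 ligands. Its control pools stood at 478, 561 and 603 CPM and its overexpressing pools at 359, 420 and 472 CPM. At each stage the overexpressing pool had between 75.0% and 78.3% of the level in the control pool of that stage. In the fit by genotype alone the difference did not pass (log2 difference -0.39, SE 0.11, adjusted p = 0.119). Adding somite number as a covariate left the size as it was and gave a call as lower (adjusted p = 0.00550). That fit called 2.82% of all genes, and 1.35% as lower. DESeq2 on the recovered reads also called Wnt5a (adjusted p = 0.00456), in a fit that called 290 genes. In all, 4 of the 17 alternative fits called it, and 0 of the 6 that left out a library (adjusted p = 0.0579 to 0.306). Robust eBayes without a trend gave adjusted p = 0.232, and edgeR without the replicate block gave 0.123. The gene Gm2670 overlaps Wnt5a exons on the opposite strand and shares their sequence. The kit keeps no strand, so the reads of this pair cannot be told apart. Gm2670 was listed at a mean of 10.3 ± 1.55 CPM in control pools and of 8.16 ± 0.924 CPM with raised Meis2 (SD, n = 3 each), far under Wnt5a.

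Wnt5b, the closest relative of Wnt5a, had 18.3, 17.4 and 15.7 CPM in the controls and 15.2, 17.5 and 17.5 CPM in the overexpressing pools. The ranges overlapped and the mean was 97.7% of control (log2 difference -0.03, 95% interval -0.26 to 0.19, adjusted p = 0.904). The sign of this small difference turned without control replicate 1 (0.01) or overexpressing replicate 1 (0.03).

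**Figure D1:**
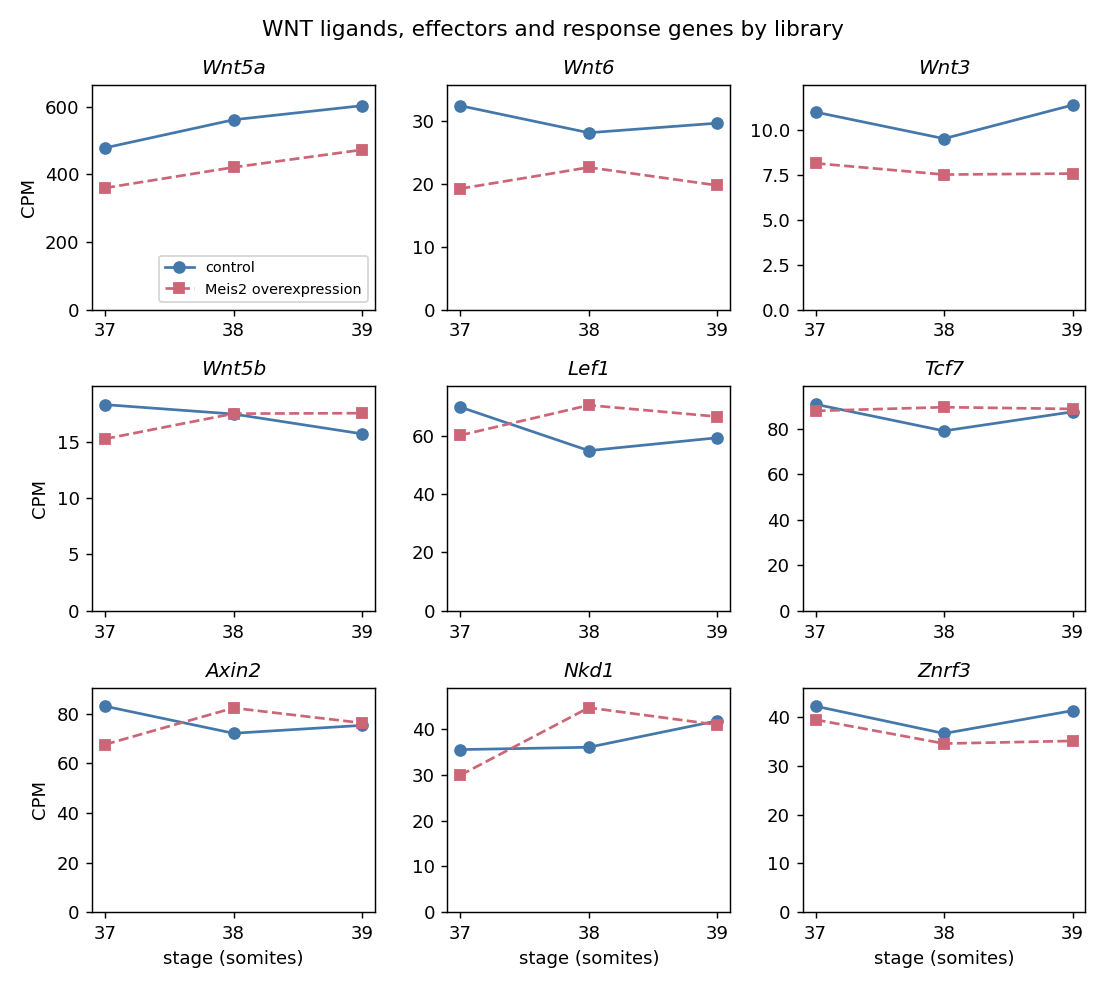
CPM (y axis, from 0, its scale set for each gene) against stage in somites (x axis) for the 9 measured genes, 1 pool of 2 embryos per point, controls as blue circles and overexpressing pools as red squares. Wnt5a, Wnt6, Wnt3 and Znrf3 lie below the control of the same stage at every stage, while the lines of Wnt5b, Lef1, Tcf7, Axin2 and Nkd1 cross.

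Ectoderm markers were lower in the same libraries. All 19 measured of 22 listed ectoderm markers had lower means (4 fell, 15 did not pass, median log2 difference -0.34), against a median of -0.00 over all genes. For scale, 0.68% of all genes were called as lower and 0.787% as higher. Their summed level ran from 705 to 761 CPM in the 3 controls and from 539 to 605 CPM in the 3 overexpressing pools, or 76.4% of control. The 12 ridge markers were all lower as well (6 fell, median -0.48), with a summed level at 64.2% of control. Both marker lists were chosen with earlier results of these data known. No ectoderm or ridge marker was at 0 reads in any library. Trp63, a regulator of stratified epithelium, fell from 83.7 ± 2.93 to 59.9 ± 6.02 CPM (SD, n = 3 each; adjusted p = 0.0189), and Fgf8, the main ridge ligand, from 94.6 ± 5.35 to 56.5 ± 10.2 CPM (adjusted p = 0.0114). In these bulk tips fewer ectodermal cells and less RNA per cell cannot be told apart, and the part of the ectoderm markers in the values of Wnt6 and Wnt3 was not tested. The limb mesenchyme markers had 0 calls among 11, with 6 higher and 5 lower, a median of 0.04 and a summed level at 91.7% of control. The part of either compartment in the values of Wnt5a was not tested. Erythroid markers were all higher (3 rose of 13, median 0.57), as were the 12 endothelial ones (1 rose, median 0.25).

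The promoters of Wnt6 and Wnt3, the ectodermal ligands with lower values in every overexpressing pool, are shown beside that of Axin2, whose pools overlapped, so that their letters can be compared. RefSeq windows from 250 bases before to 50 after the annotated gene start were at hand for 8 of the 10 genes. Wnt5a and Znrf3 had no window and were not searched. The 14 windows of 300 bases are on GRCm38.p6, a later build than the NCBIM37 of the files. Each is printed along its gene's strand (plus for all 3), at chr11:103773925-103774224 for Wnt3, chr1:74771642-74771941 for Wnt6 and chr11:108920099-108920398 for Axin2. Capitals mark matches to any of 4 short motifs searched on both strands.
Wnt3: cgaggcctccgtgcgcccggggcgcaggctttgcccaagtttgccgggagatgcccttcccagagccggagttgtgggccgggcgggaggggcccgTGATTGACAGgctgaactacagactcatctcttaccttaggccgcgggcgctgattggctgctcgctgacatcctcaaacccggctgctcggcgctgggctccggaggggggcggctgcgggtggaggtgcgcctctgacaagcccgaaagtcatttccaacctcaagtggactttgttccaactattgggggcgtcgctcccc
Wnt6: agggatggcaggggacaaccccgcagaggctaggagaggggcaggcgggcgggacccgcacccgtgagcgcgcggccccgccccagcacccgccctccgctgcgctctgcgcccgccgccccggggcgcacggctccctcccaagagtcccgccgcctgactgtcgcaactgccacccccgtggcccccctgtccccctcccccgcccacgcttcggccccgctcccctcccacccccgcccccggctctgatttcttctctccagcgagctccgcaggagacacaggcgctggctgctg
Axin2: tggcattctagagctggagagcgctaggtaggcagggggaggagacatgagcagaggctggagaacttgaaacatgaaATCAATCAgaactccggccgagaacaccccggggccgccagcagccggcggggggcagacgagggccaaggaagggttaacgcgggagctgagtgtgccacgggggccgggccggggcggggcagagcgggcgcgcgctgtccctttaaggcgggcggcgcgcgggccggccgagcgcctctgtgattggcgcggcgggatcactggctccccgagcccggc

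The motifs were CTTTGA, the core bound by TCF and LEF proteins; TGACAG, the core bound by MEIS proteins; TGATTGACA, a composite of PBX and MEIS half-sites that can overlap TGACAG; and TGATTGAT, a composite of PBX and HOX half-sites. Of all 32851 promoter windows in the table, 16.0% held CTTTGA, 19.2% held TGACAG, 0.432% held TGATTGACA and 0.746% held TGATTGAT. The Wnt3 window held TGATTGACA starting at base 97 of the window, 154 bases before the gene start, overlapped by TGACAG. The Axin2 window held TGATTGAT on the reverse strand from base 79. The Wnt6 window held none of the 4. Among the other members with a window, CTTTGA was in that of Sp5, in 1 of 4 windows of Lef1 and in 1 of 3 windows of Wnt5b. TGACAG was in the window of Nkd1 and in the same Lef1 window. These matches describe letters in short windows and nothing about binding in these tips.

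Levels can be compared between genes only per length, here CPM divided by the mean length in kb of a gene's coding transcripts in GENCODE M21. On that scale Wnt5a was the highest of the 9 genes in controls at 103 ± 11.9 CPM per kb (SD, n = 3). Axin2 (43.6) and Tcf7 (40.7) came next with overlapping pools, then Lef1 at 19.6 CPM per kb. Wnt6 (14.5) and Nkd1 (13.2) overlapped, and Znrf3 (9.81), Wnt5b (7.62) and Wnt3 (3.45 CPM per kb) followed without overlap. With the longest transcript of each gene instead, Axin2 stood at 18.0 CPM per kb, below Tcf7 at 34.7. On that length Znrf3 stood at 6.35 CPM per kb in controls, below Wnt5b at 7.23, so their order depends on the length used.

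The 4 ligands were set beside all WNT ligand genes in the table. Of 14 further ligand genes 5 are in the table, and with Wnt7a 10 ligand genes were measured. Their summed level was 141, 150 and 159 CPM per kb in the controls and 105, 117 and 124 CPM per kb in the overexpressing pools. The highest overexpressing sum was under the lowest control sum (150.0 ± 9.23 against 115 ± 9.95, SD, n = 3 each; two-sided exact permutation p = 0.1, the smallest that 3 against 3 allows). Wnt5a made up 68.3% ± 3.96 of the sum in controls and 67.7% ± 3.39 in overexpressing tips (SD, n = 3 each; exact permutation p = 1). Without Wnt5a the sum was 47.4 ± 3.21 and 37.0 ± 1.01 CPM per kb, with no overlap (exact permutation p = 0.1). With 3 pools against 3, no permutation test of these sums could reach p under 0.05. The sums add up the values of the single ligand genes and are not separate support for them.

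None of the 5 further ligands passed, 4 were lower and 1 was higher, with a median log2 difference of -0.42. Wnt10b was at 13.4, 13.5 and 13.8 CPM in controls and 9.45, 8.03 and 11.1 CPM in overexpressing pools (log2 difference -0.48, adjusted p = 0.101). Wnt7b, an ectodermal ligand, was at 15.7 ± 1.88 and 11.4 ± 1.76 CPM (SD, n = 3 each; log2 difference -0.43, adjusted p = 0.161). Wnt11, at 2.20 ± 0.394 and 3.42 ± 0.631 CPM, was the 1 with higher pools (adjusted p = 0.254); it is named after its values were seen. Wnt7b and Wnt11 also have opposite-strand overlaps, with AU022754 and Gm8398, and Gm8398 shares sequence with Wnt11. Of the 2 genes of ligand secretion, Wls, the carrier that brings WNT proteins to the cell surface, fell from 206, 225 and 234 CPM to 168, 158 and 186 CPM (log2 difference -0.37, SE 0.07, adjusted p = 0.0396). The Wls call was lost without control replicate 2 or 3 or overexpressing replicate 1 or 2 (adjusted p = 0.0784 to 0.163). Robust eBayes without a trend did not call Wls either (adjusted p = 0.1195). Porcn, which adds the lipid, was at 111% of control without passing (adjusted p = 0.697) and is named only to complete the pair.

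**Figure D2:**
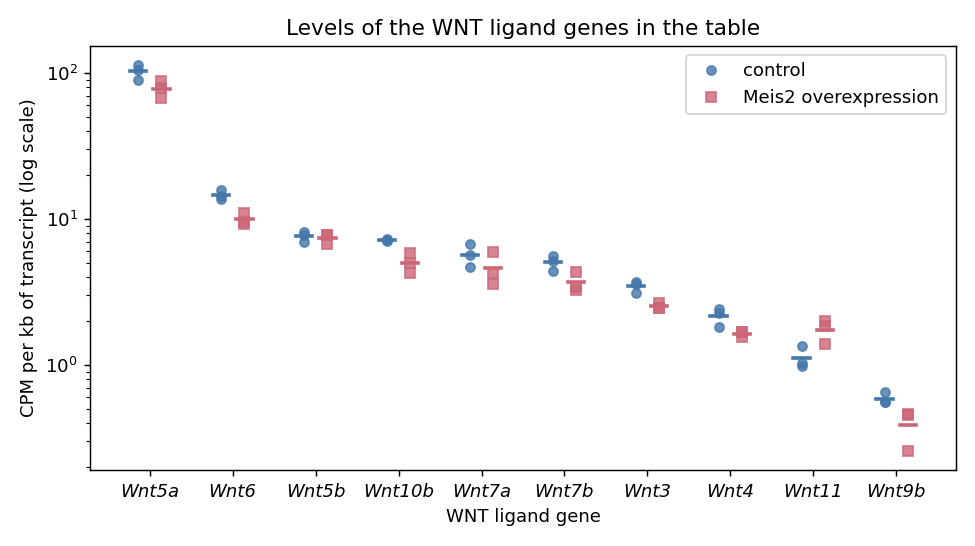
Level of each of the 10 measured WNT ligand genes in CPM per kb of transcript (y axis, log scale), ordered by the control mean, with 1 point per pool and a bar at the mean of 3 pools; controls are blue circles and overexpressing pools red squares. Wnt5a stands above all others, and the overexpressing pools of Wnt5a, Wnt6, Wnt10b, Wnt7b, Wnt3, Wnt4 and Wnt9b lie below their controls, those of Wnt11 above.

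The nuclear effectors did not pass. Exons of Lef1 overlap Gm43352 on the opposite strand, so its reads are uncertain to that extent. Lef1, a TCF-family partner of beta-catenin that is itself a WNT target, had 69.8, 54.9 and 59.3 CPM in the controls and 60.1, 70.4 and 66.5 CPM in the overexpressing pools. The genotypes overlapped, with the overexpressing pool lower at 37 somites and higher at 38 and 39 (log2 difference 0.10, 95% interval -0.11 to 0.31, adjusted p = 0.622). Tcf7, which encodes TCF1, had 90.6, 79.0 and 87.3 CPM against 87.7, 89.3 and 88.6 CPM. Its overexpressing pools lay within the control range (log2 difference 0.05, 95% interval -0.10 to 0.20, adjusted p = 0.735), and the sign turned without control replicate 2 (-0.01).

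The response genes did not pass either. Exons of Axin2 overlap Gm11670 on the opposite strand, so reads of the 2 genes cannot be told apart there, which also touches every ratio to Axin2. Axin2, a scaffold of the beta-catenin destruction complex and the usual readout of canonical signalling, had 83.1, 72.1 and 75.3 CPM in the controls. The overexpressing pools had 67.6, 82.4 and 76.3 CPM. The lowest and the next-to-highest of all 6 values belonged to overexpressing pools, and the means were 76.8 ± 5.61 and 75.4 ± 7.41 CPM (SD, n = 3 each; log2 difference -0.03, SE 0.08, adjusted p = 0.892). The 95% interval, -0.22 to 0.16, leaves room for a change of that size in either direction, and the sign turned without control replicate 1 (0.03) or overexpressing replicate 1 (0.05).

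Nkd1, an inhibitor of Dishevelled that WNT induces, had 35.5, 36.03 and 41.8 CPM in the controls and 29.9, 44.7 and 40.9 CPM in the overexpressing pools. Both the lowest and the highest value were in overexpressing pools (log2 difference 0.01, 95% interval -0.29 to 0.31, adjusted p = 0.975). The sign turned without control replicate 1 (-0.03), control replicate 2 (-0.02), overexpressing replicate 2 (-0.10) or overexpressing replicate 3 (-0.04). Znrf3, a ubiquitin ligase that removes Frizzled receptors, had 42.2, 36.6 and 41.3 CPM against 39.5, 34.6 and 35.1 CPM. It was lower at each stage but the ranges overlapped (log2 difference -0.14, 95% interval -0.32 to 0.05, adjusted p = 0.464).

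**Figure D3:**
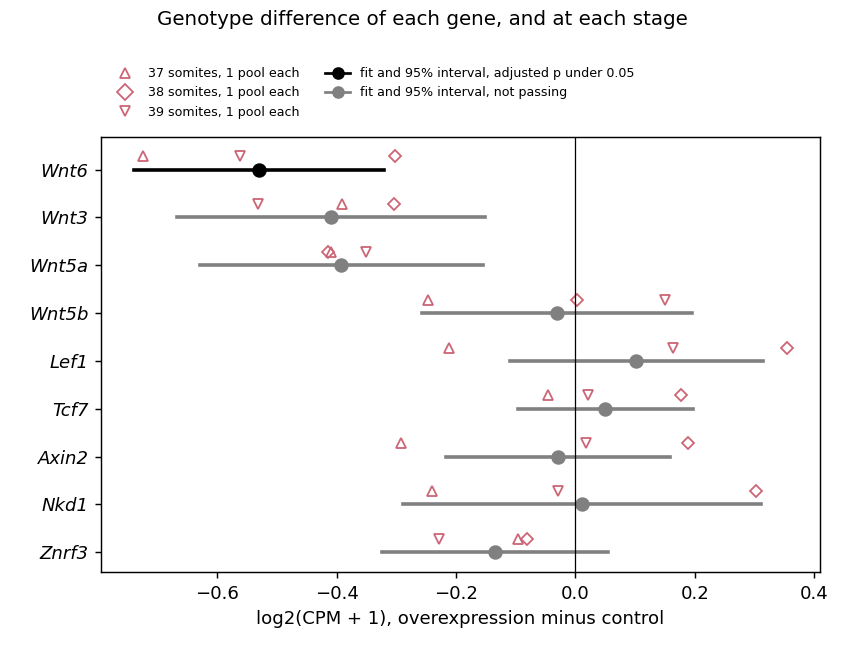
Difference in log2(CPM + 1), overexpression minus control (x axis), for the 9 measured genes (y axis): filled circles and bars are the limma estimate and its 95% interval over 3 pools per genotype, black where the adjusted p was under 0.05, and open red symbols are the difference between the pools of 1 stage. The interval of Wnt6 is the black one, at -0.53, and the stage symbols of Wnt6, Wnt3, Wnt5a and Znrf3 are all left of 0.

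Each ligand was also set against Axin2, as their log2 CPM ratio in each library. The ratio of Wnt6 to Axin2 was -1.35, -1.36 and -1.34 in the controls and -1.81, -1.86 and -1.95 in the overexpressing pools, a difference of -0.52 on the log2 scale. The 3 control pools had an SD of 0.00737, and the groups were apart. These control ratios came from 343, 323 and 248 reads of Wnt6 and 877, 827 and 629 reads of Axin2. Counting error at such read numbers is larger than this SD, which therefore does not measure how closely the ratio is held. The ratio of Wnt3 to Axin2 also differed without overlap, by -0.42. The ratio of Wnt5a to Axin2 differed by -0.36 with overlap, because the control pool of 37 somites (2.52) lay below the overexpressing pool of 39 somites (2.63). The ratio of Wnt5b to Axin2 differed by -0.00. Over these 4 comparisons the two-sided exact permutation p was 0.1, 0.1, 0.2 and 1 in that order (adjusted p = 0.2, 0.2, 0.267 and 1). The smallest p that the design allows is 0.1, so no comparison could pass at 0.05. Axin2 itself differed by -0.03, so the ratio differences lie close to those of the ligands alone, -0.53 for Wnt6 and -0.41 for Wnt3. The share of all genes whose ratio to Axin2 lies apart was not computed.

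The stages were compared as log2 change per somite with genotype in the fit. Wnt5a had the steepest slope of the 9 genes, 0.18 per somite (SE 0.03), with values higher at each later stage in both genotypes, and it did not pass over all genes (adjusted p = 0.0690). It passed without control replicate 2 (adjusted p = 0.0427) and in no other of 11 alternatives, and 0.356% of all genes passed in the fit reported. Nkd1 had a slope of 0.17 (SE 0.07, adjusted p = 0.656), and the other 7 slopes lay between -0.05 and 0.01. Among mesenchymal markers in the same fit, 3 of 11 passed, all of them rising, while 0 of the 31 ectoderm and ridge markers did.

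At 37 somites all 9 genes were lower in the overexpressing pool, from -0.05 for Tcf7 to -0.72 for Wnt6 on the log2 scale. At 38 somites Lef1, Tcf7, Axin2 and Nkd1 were higher in the overexpressing pool, by 0.35, 0.18, 0.19 and 0.30, and Wnt5b was nearly equal, at 0.00257. At 39 somites Lef1 was 0.16 and Wnt5b 0.15 higher, and Tcf7, Axin2 and Nkd1 differed by 0.02, 0.02 and -0.03. With 1 pool per stage and genotype these differences have no replicate of their own. A term for unequal slopes was not passed by any of the 9 genes (estimates from -0.07 to 0.20, adjusted p = 1.00 for each). It was passed by 0 of all 12065 genes (0%) in limma, with 240 at an unadjusted p under 0.05, and by 0 with robust eBayes without a trend.

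The rest of the pathway was read from 7 lists with 62 measured genes in 63 rows, of which 5 fell, 0 rose and 58 did not pass. Across all genes, 0.68% were called as lower and 0.787% as higher. Their median log2 difference was -0.02, against -0.00 over all genes. Of 12 rows for receptors and co-receptors Fzd1, a Frizzled receptor, fell from 86.3, 85.6 and 94.4 CPM to 61.6, 70.0 and 73.5 CPM (log2 difference -0.37, SE 0.08, adjusted p = 0.0493). That call stood close to the threshold and held only without overexpressing replicate 3 (adjusted p = 0.0469) among the fits that left out a library. In the other 5 the adjusted p was 0.0899 to 0.189. For Fzd1, edgeR on the recovered reads gave 0.0590 and robust eBayes without a trend gave 0.1185.

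Of 12 genes of the polarity branch none passed, and 9 were lower and 3 higher. Ror2, a receptor for Wnt5a, was at 52.5, 42.7 and 50.3 CPM in controls and 54.8, 67.2 and 62.5 CPM in overexpressing pools. Its overexpressing pools were all above the controls, as the ligand's were all below (log2 difference 0.34, SE 0.10, adjusted p = 0.138). Daam1, a formin downstream of Dishevelled, was at -0.33 (adjusted p = 0.109). Of 10 genes around beta-catenin none passed, with Ctnnb1, the beta-catenin gene, at 1784 ± 31.0 and 1583 ± 65.3 CPM (SD, n = 3 each; log2 difference -0.17, adjusted p = 0.194) and Dvl1, a Dishevelled gene, at 0.23 (adjusted p = 0.387). Exons of Ctnnb1 overlap Ulk4, which shares sequence with it, and those of Dvl1 overlap Tas1r3, on the other strand. The reads of Ctnnb1 and Dvl1 are uncertain to that extent.

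Among 10 other nuclear effectors none passed. Tle4, a Groucho corepressor, was at -0.22 (adjusted p = 0.202), and Tcf7l2, which encodes TCF4, was at 0.29 (adjusted p = 0.273).

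Of 12 other response genes 3 fell, 0 rose and 9 did not pass, with 6 higher and 6 lower, where 0.68% of all genes were called as lower. Notum, which removes the lipid from WNT proteins, fell from 19.98, 20.3 and 24.4 CPM to 13.4, 12.2 and 14.2 CPM (log2 difference -0.66, SE 0.11, adjusted p = 0.0189), a call lost without control replicate 3 (0.0810) or overexpressing replicate 2 (0.0768). Tnfrsf19, a TNF receptor family member, was at 65.3, 64.0 and 66.2 CPM in controls and 54.8, 47.8 and 50.4 CPM in overexpressing pools, a fall of -0.35 (SE 0.07, adjusted p = 0.0399). Bambi, a decoy receptor that dampens TGF-beta signals, fell by 0.48 on the log2 scale (adjusted p = 0.0389). Leaving out 1 library ended the call of Tnfrsf19 in 5 of 6 cases (all but overexpressing replicate 1, adjusted p = 0.0931 to 0.157). It ended that of Bambi in 5 of 6 (all but overexpressing replicate 3, adjusted p = 0.0553 to 0.148). Robust eBayes without a trend called Notum (adjusted p = 0.0435) but neither Tnfrsf19 (0.0893) nor Bambi (0.1005). Exons of Notum are overlapped on the opposite strand by Myadml2os and Notumos, and Notumos shares sequence with Notum. Part of the reads of Notum may thus belong to these genes.

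**Figure D4:**
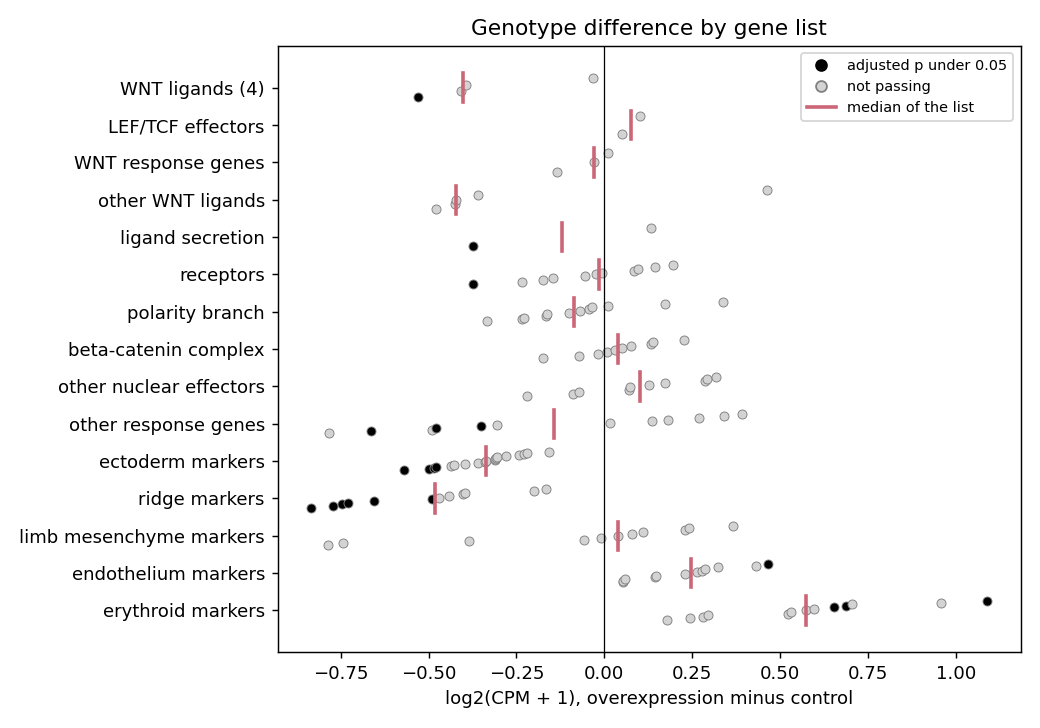
Difference in log2(CPM + 1), overexpression minus control (x axis), for every measured gene of 10 WNT lists and 5 marker lists (y axis), with black points for an adjusted p under 0.05, grey points for the rest and a red bar at the median of each list. A further row under the symbol Fzd10, at 2.29, lies off the axis; the ligand, ectoderm and ridge medians lie at -0.40, -0.34 and -0.48, and those of the effectors and response genes at 0.08 and -0.03.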

How the data were processed

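The authors deposited CPM values for 12065 genes in 6 libraries of polyA RNA, made with the TruSeq RNA v2 kit per the labels' protocols. Upstream tools were edgeR (no version), RSEM 1.17 and cutadapt 1.2.1 with build NCBIM37, per the submitters' processing notes; the role of each, the aligner and the filter are not given in the sources used here. All values were within 0.001 of a whole multiple of 1 step per library (100% of values), so whole reads were recovered, 7622698 to 15395447 per library. TMM sizes from these reads equalled the authors' effective sizes (ratio 1 in each library). Every gene had at least 2.00 CPM in 3 or more libraries.

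The genotype test used lmFit and eBayes with a trend from limma 3.58.1 (R 4.3.3; 6.03 prior degrees of freedom) on log2(CPM + 1), which understates changes of low genes, over all 12065 genes with Benjamini-Hochberg adjustment. Genes were called at an adjusted p under 0.05. The p-values measure the spread between pools, and intervals and read floors cover no other error. For stage slopes somite number was added to genotype, and for unequal slopes their interaction. The fits were run on simulated data with changes larger than any genotype difference of the measured members. That run does not tell whether changes of the size seen in the members would be detected. The alternatives included edgeR 4.0.16 (171 genes called) and DESeq2 1.42.0 on the recovered reads.

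The members, lists and motifs were chosen with earlier results of these data known. Named genes were the members, Meis2, called genes of each other WNT list or else the 2 with the smallest p, and the up to 3 most abundant genes of each marker list; others were picked with their values known. A near-identical copy was a blastn match among GENCODE M21 transcripts of 97% identity, 100 bases or more, and 50% or more of the shorter one. Among the members 1 had such a match, Wnt5a with the opposite-strand gene Gm2670. Exons of Axin2 and Lef1 also overlap opposite-strand genes without a near-identical match, and the kit keeps no strand.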

Additional observations from a re-analysis of the deposited data

How the results depend on the processing

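Over 17 alternatives the differences of Wnt3, Wnt5a, Wnt6, Lef1 and Znrf3 kept their direction. Of the 9 measured genes 1 was called as reported, 2 (Wnt6 and Wnt5a) with somite number in the fit, with DESeq2, with the replicate block and with edgeR under the replicate block (the last chosen after the data were seen), and 0 with robust eBayes without a trend. Leaving out 1 library gave 0 to 1 calls among them. Over all genes 177 were called, 86 with robust eBayes without a trend, 290 with DESeq2, 340 with somite number and 258 with the replicate block, and 56 to 162 without 1 library. Deviations of same-numbered pools from their group means correlated across genes at 0.0328, -0.152 and 0.381, and not every pool correlated best with its own number. Same-numbered pools share a stage by design, but the labels do not say whether they shared a litter. The reported genotype fit holds neither stage nor pairing. Stage enters the fit with somite number and the fits with the replicate block. The block also ended the call of Tnfrsf19 (adjusted p = 0.0598). Without 1 library the genotype differences that turned sign ranged from -0.0901 to 0.0312 for Wnt5b, -0.00657 to 0.0918 for Tcf7, -0.0937 to 0.0467 for Axin2 and -0.103 to 0.178 for Nkd1. The stage slope was called for 43 genes, for 0 without the genotype term or with robust eBayes without a trend, and for 1 to 69 without 1 library; among the members it was called for 0 to 1. Slopes that turned sign without 1 library ranged from -0.0752 to 0.0204 for Wnt3, -0.0825 to 0.0630 for Wnt5b, -0.0874 to 0.0293 for Wnt6, -0.109 to 0.0794 for Lef1, -0.0338 to 0.0343 for Tcf7 and -0.0774 to 0.0811 for Axin2. The cause of these moves was not tested. With 58 to 117 reads per library, Wnt3 is the member whose depth limits it most.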

Other observations

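A further row of the table carries the symbol Fzd10 under an identifier that GENCODE M21 lacks. It was listed at 3.31, 0 and 0 CPM in the controls of 37, 38 and 39 somites and at 2.06, 13.1 and 10.7 CPM in the overexpressing pools (log2 difference 2.29, SE 0.64, adjusted p = 0.129), and its groups overlapped. The other Fzd10 row, a Frizzled receptor of the limb, stood at 78.7 ± 3.23 and 75.9 ± 5.45 CPM (SD, n = 3 each; adjusted p = 0.734). How the authors' counting divided reads between these rows was not tested.

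Lgr4 and Lgr6, receptors of the R-spondins that enhance WNT signals, lay apart in opposite directions and are named after their values were seen. Lgr4 stood at 27.6 ± 0.667 CPM without and at 35.3 ± 2.03 CPM with the Cre (SD, n = 3 each; log2 difference 0.34, adjusted p = 0.0628). Lgr6 was at 5.68 ± 0.906 and 2.95 ± 1.04 CPM (log2 difference -0.78, adjusted p = 0.0979). For both genes the groups did not overlap, and neither passed over all genes. Whether the direction of Lgr4 differs from that of Lgr6 was not tested.

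Nkd1 and Nkd2 encode related inhibitors of Dishevelled. Nkd2 was at 59.9, 59.1 and 63.1 CPM in the controls and 70.7, 77.0 and 72.6 CPM in the overexpressing pools, without overlap (log2 difference 0.27, SE 0.06, adjusted p = 0.0729), and is likewise named after its values were seen, while the pools of Nkd1 overlapped.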
